A study of Mus musculus with 6 samples.

Results

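The receptors for interleukin 2 and interleukin 15 and the kinases and transcription factors that carry their signal were followed in P14 cytotoxic T cells, CD8 T cells with a transgenic receptor for the gp33 peptide. The members were the genes Il2ra, Il2rb, Il2rg, Il15ra, Jak1, Jak3, Stat5a and Stat5b, and every probe set that the array annotation assigns to exactly 1 of these symbols was read. This gave 14 probe sets of 7 genes, out of 45037 probe sets other than controls and 18193 genes with a probe set of their own. Il2rg had no probe set named in the annotation used here, and 2 probe sets listed for Jak3 together with a second gene were left out. All 14 probe sets passed the filter on dim probe sets.

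Spleen cells carrying the P14 receptor, on the C57Bl/6 background, were stimulated with the gp33 peptide during 24 h, then transduced with a retroviral GFP-HDAC7 that cannot be phosphorylated. HDAC7 is a class IIa histone deacetylase, a nuclear repressor that leaves the nucleus once phosphorylated. Cells were sorted into 3 GFP positive samples, which carry the mutant, and 3 GFP negative samples from the infected cultures, which serve as the control. Each sample was hybridised to 1 Affymetrix mouse array. The labels call the samples biological replicates without stating that animals or cultures were separate. Their p-values therefore reflect the spread among the samples at hand, which may be technical. No empty-vector cells were analysed here.

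In T cells, interleukin 2 is bound by an alpha chain (Il2ra, CD25), a beta chain (Il2rb) and the common gamma chain (Il2rg). The alpha chain raises the affinity and does not signal, while the beta and gamma chains carry the kinases JAK1 and JAK3. The kinases phosphorylate STAT5A and STAT5B, which enter the nucleus and activate genes that include Il2ra itself. Interleukin 15 uses the same beta and gamma chains with its own alpha chain, Il15ra, which often presents the cytokine from a neighbouring cell.

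Array medians ran from 1.62 to 1.72 on the log2 scale. As a measure of background, 3 bacterial TrpnX control probe sets averaged between 0.60 and 0.72 on each array. The construct was visible on 1 Hdac7 probe set, which went from 4.83 ± 0.03 to 8.15 ± 0.05 (log2 signal, SD, n = 3), while the second went from 6.74 ± 0.08 to 6.19 ± 0.02. Which stretch of HDAC7 the virus encodes was not known here. T cell markers were bright, with Thy1 at 11.07 ± 0.31 in GFP negative and 11.29 ± 0.06 in GFP positive cells, and 4 of 6 tested genes of the CD8 T cell list were higher in GFP positive cells, as were 22.6% of all genes, each read on its brightest probe set. Cd8b1, a chain of the CD8 coreceptor, was at 9.55 ± 0.21 and 10.70 ± 0.25. Summed over the 6 list genes with a probe set, log2 signal was 55.9 to 57.1 and 59.4 to 60.7.

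On the brightest probe set of each gene, GFP positive cells had about 5-fold less Il2ra signal than GFP negative cells, more Jak1 and Stat5b, and slightly more Stat5a. For Jak1, Stat5b and Stat5a a dimmer probe set did not pass. The Stat5a call was also lost with median centring or without certain single samples. Il2rb, Il15ra and Jak3 did not pass the test. By limma at an adjusted p threshold of 0.05, 4 of the 14 probe sets were higher and 2 lower in GFP positive cells, and 8 did not pass. The 6 called make up 42.9% of the members, against 32.5% of all 27022 probe sets tested. Among all probe sets, 19.3% were called higher and 13.2% lower, so the share of members called lies near that of the array. The median change of the 14 was 0.22 on the log2 scale, against -0.02 over all probe sets tested.

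**Figure D1:**
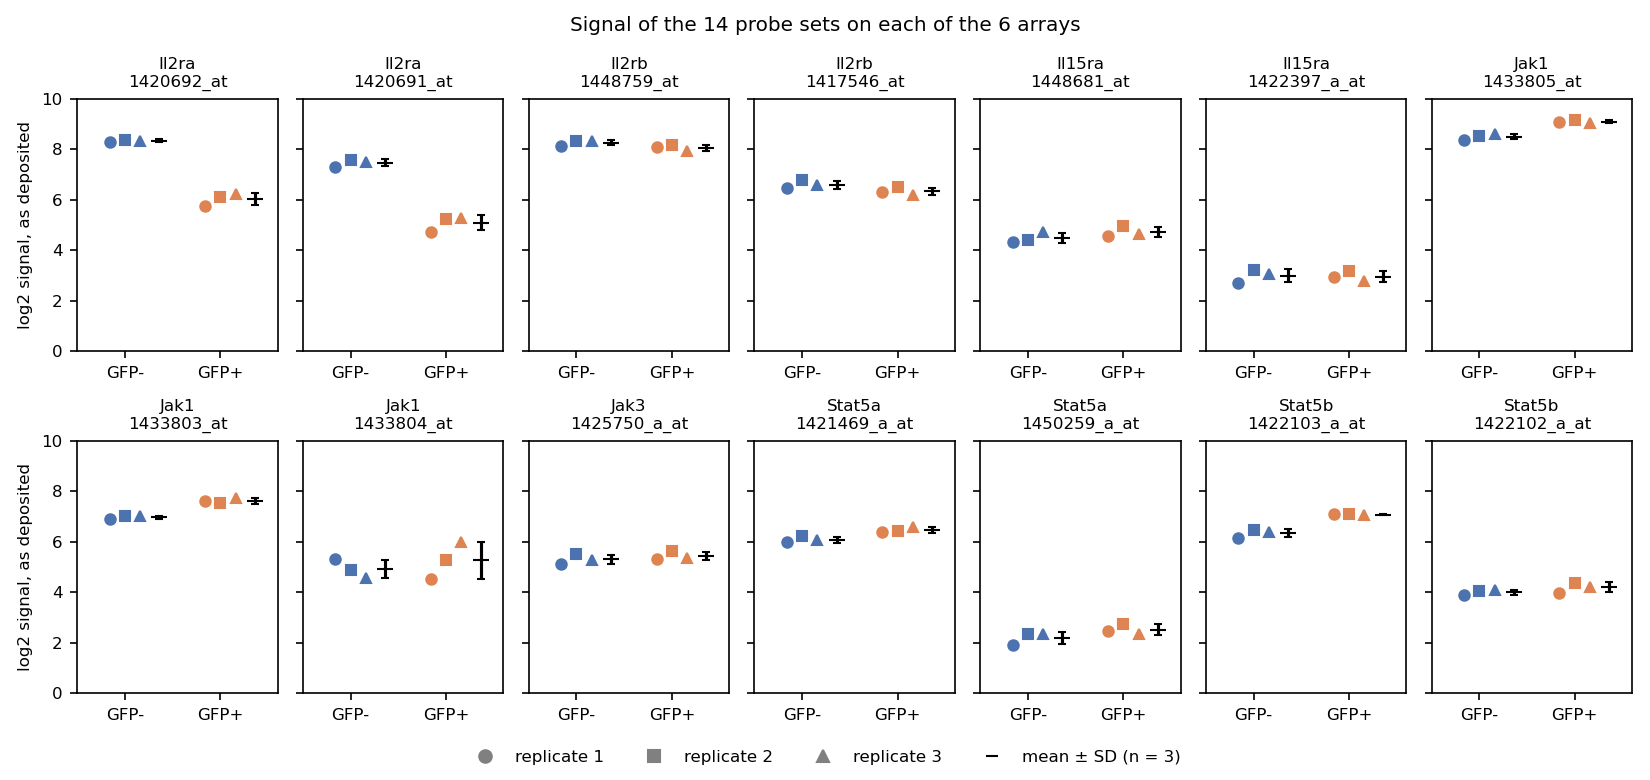
Log2 signal as deposited (y axis) of each of the 14 probe sets on the 3 GFP negative (GFP-) and 3 GFP positive (GFP+) arrays, with 1 marker shape per replicate number and the mean ± SD beside each group. Both Il2ra panels separate widely, and Jak1 and Stat5b separate by less on their brightest probe sets.

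Il2ra was the member with the largest change. Its brighter probe set, 1420692_at, read 8.29, 8.39 and 8.34 in GFP negative 1 to 3, and 5.77, 6.10 and 6.22 in GFP positive 1 to 3. The groups lay far apart, with 2.07 log2 units between the lowest control and the highest mutant sample. The change was -2.31 ± 0.12 (SE), or 4.96-fold lower, with a limma adjusted p of 8.6e-05 and a 95% interval of -2.60 to -2.02. Of the 27022 probe sets tested, 24 (0.089%) had a change as low as this or lower. Because RNA came from sorted populations in bulk, fewer cells with the transcript and less transcript per cell cannot be told apart.

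The dimmer Il2ra probe set, 1420691_at, gave the same picture. It read 7.31, 7.57 and 7.52 in GFP negative and 4.75, 5.26 and 5.30 in GFP positive samples. Again no sample of one group reached the other. The change was -2.36 ± 0.16 (SE, limma adjusted p = 1.4e-04). Compared within replicate numbers, the brighter probe set changed by -2.52, -2.29 and -2.12 in numbers 1, 2 and 3. Adding 32 linear units to every signal, which damps low ones, gave -1.87.

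The promoter of Il2ra is shown because it is the member whose transcript fell, and that of Stat5a because it is the other member with a match to a searched motif. Each runs from 250 bases before to 50 after the annotated start, from RefSeq on GRCm38.p6, 5′ to 3′ on the strand of the gene. Capitals mark matches to the NF-kB motif, the site of a factor that activates Il2ra in stimulated T cells. Il2ra lies at chr2:11642542-11642841 on the plus strand, and the second of the 2 Stat5a entries at chr11:100860234-100860533 on the plus strand.
Il2ra: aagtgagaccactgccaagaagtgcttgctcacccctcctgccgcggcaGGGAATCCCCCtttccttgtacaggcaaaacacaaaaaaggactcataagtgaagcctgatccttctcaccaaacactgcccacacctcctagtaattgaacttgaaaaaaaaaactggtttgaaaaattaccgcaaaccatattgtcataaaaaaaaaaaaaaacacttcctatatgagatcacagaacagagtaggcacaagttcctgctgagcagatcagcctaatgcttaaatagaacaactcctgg
Stat5a: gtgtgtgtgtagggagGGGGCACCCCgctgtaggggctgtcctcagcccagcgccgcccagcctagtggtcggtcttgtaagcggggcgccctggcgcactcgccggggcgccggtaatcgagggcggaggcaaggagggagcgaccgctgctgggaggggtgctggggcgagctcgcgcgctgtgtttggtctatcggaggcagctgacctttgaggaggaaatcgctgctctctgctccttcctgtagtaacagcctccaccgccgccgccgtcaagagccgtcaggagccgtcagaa
In Il2ra the capitals hold 2 overlapping matches, whose first bases lie 201 and 200 bases before the start, and in Stat5a 1 match lies 234 bases before it. Promoters of 7 members were found in the table, as 10 entries, and Il2rb was not matched. On both strands, 2 of the 10 held the NF-kB motif, 0 held the STAT motif TTCNNNGAA and 0 held the MEF2 motif. MEF2 factors are known partners of class IIa deacetylases. Of 32851 promoter windows of the same length, 4.51% held the NF-kB motif, 8.30% the STAT motif and 3.19% the MEF2 motif. A match describes letters in this window only.

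The beta chain gene Il2rb, whose product signals for both cytokines, was only slightly lower. Its brighter probe set, 1448759_at, read 8.15, 8.32 and 8.34 in GFP negative and 8.08, 8.16 and 7.94 in GFP positive samples. The highest GFP positive sample lay just above the lowest GFP negative one. The change was -0.21 ± 0.10 (SE, limma adjusted p = 0.14), with a 95% interval of -0.44 to 0.02. The other probe set, 1417546_at, read 6.46, 6.77 and 6.58 against 6.30, 6.49 and 6.20, a change of -0.27 ± 0.12 (limma adjusted p = 0.12). These calls depended on how arrays were scaled. With each array centred on its median, the changes were -0.33 and -0.38 and both passed (limma adjusted p = 0.038 and 0.032), and after quantile normalization the dimmer one passed (-0.37, adjusted p = 0.043). The median change of all probe sets was -0.14 with that centring.

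Il15ra, the alpha chain for interleukin 15, had 2 probe sets, with mean signals of 4.50 and 2.99 in GFP negative cells. The brighter, 1448681_at, read 4.35, 4.43 and 4.73 in GFP negative and 4.58, 4.96 and 4.67 in GFP positive samples. The groups overlapped, and the change was 0.23 ± 0.14 (SE, limma adjusted p = 0.23, 95% interval -0.09 to 0.56). It was 0.07 after quantile normalization, 0.12 after median centring and 0.10 with 32 added in linear units. The dimmer, 1422397_a_at, read 2.71, 3.21 and 3.07 against 2.94, 3.18 and 2.78 and had a change of -0.03 ± 0.16, so the probe sets did not share a direction.

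The change of Il2ra was set against that of each other member within each array. The difference between Il2ra and Il2rb on their brightest probe sets fell by 2.10 log2 units from GFP negative to GFP positive cells, and that between Il2ra and Il15ra by 2.54. Against the signalling genes it fell by 2.44 for Jak3, 2.70 for Stat5a, 2.89 for Jak1 and 3.04 for Stat5b. In each of these 6 comparisons the 3 GFP positive values lay below the 3 GFP negative ones. An exact two-sided permutation test gave p = 0.1 for each (0.1 after adjustment over the 6), the smallest that 3 against 3 samples allow. Its 20 regroupings took no account of replicate numbers. On these arrays Il2ra thus fell relative to each of the 6. The test decides nothing, since it cannot pass the threshold in this design. The fall of Il2ra was known beforehand, and all 6 comparisons use the same Il2ra values.

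**Figure D2:**
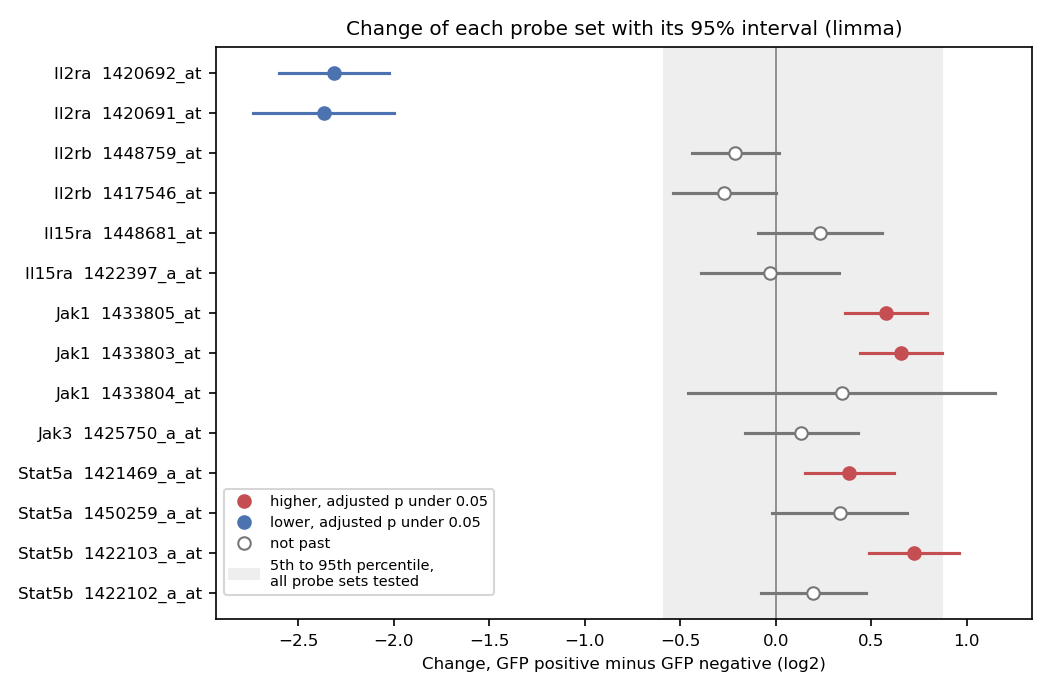
Change of each probe set from GFP negative to GFP positive cells on the log2 scale (x axis), with its 95% interval from limma. Filled points passed an adjusted p of 0.05, open points did not, and the grey band spans the 5th to 95th percentile of all probe sets tested, -0.59 to 0.87. Only the Il2ra points lie outside the band.

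Of the kinases, Jak1, which is held by the beta chain, was higher on its brightest probe sets. Probe set 1433805_at read 8.38, 8.54 and 8.61 in GFP negative and 9.08, 9.15 and 9.03 in GFP positive samples, without overlap. The change was 0.58 ± 0.09 (SE, limma adjusted p = 0.0029), or 1.49-fold. Probe set 1433803_at read 6.90, 7.02 and 7.01 against 7.63, 7.52 and 7.75 and rose by 0.66 ± 0.09 (limma adjusted p = 0.0017). The third, 1433804_at, read 5.32, 4.88 and 4.59 against 4.54, 5.28 and 5.99. Its samples spread widely in both groups, with GFP positive 1 lowest of all 6 and GFP positive 3 highest, and its change of 0.34 ± 0.35 did not pass. Without GFP positive 3 its change was -0.014.

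Jak3, the kinase held by the common gamma chain, was read on 1 probe set, 1425750_a_at. It read 5.14, 5.51 and 5.30 in GFP negative and 5.33, 5.64 and 5.38 in GFP positive samples. The groups overlapped, and the change of 0.13 ± 0.13 (SE, limma adjusted p = 0.45) had a 95% interval of -0.16 to 0.43. After quantile normalization it was -0.016. In each group, replicate 2 was the highest sample. Within replicate numbers 1, 2 and 3 the changes were 0.19, 0.13 and 0.081, all above 0, and with the replicate number as a block the change did not pass (limma adjusted p = 0.26).

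Of the transcription factors, Stat5b was clearly higher on its brighter probe set. Probe set 1422103_a_at read 6.17, 6.48 and 6.41 in GFP negative and 7.09, 7.11 and 7.05 in GFP positive samples. The lowest GFP positive sample lay 0.56 above the highest GFP negative one. The rise was 0.73 ± 0.10 (SE, limma adjusted p = 0.0017), or 1.65-fold. The dimmer probe set, 1422102_a_at, read 3.89, 4.04 and 4.08 against 3.99, 4.38 and 4.23, and its change of 0.20 ± 0.12 did not pass (limma adjusted p = 0.23). Averaged over both, Stat5b rose by 0.46 (limma adjusted p = 0.0060).

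Stat5a rose by less. Its brighter probe set, 1421469_a_at, read 5.99, 6.22 and 6.06 in GFP negative and 6.39, 6.45 and 6.59 in GFP positive samples. The groups did not overlap, and the change was 0.39 ± 0.10 (SE, limma adjusted p = 0.022), or 1.31-fold. This call was lost without GFP negative 1 (0.33, adjusted p = 0.077), GFP negative 3 (0.37, 0.072), GFP positive 2 (0.40, 0.054) or GFP positive 3 (0.33, 0.064), and with median centring (0.27, limma adjusted p = 0.051). The dimmer probe set, 1450259_a_at, lay low, at 1.91, 2.33 and 2.33 against 2.46, 2.76 and 2.36, and did not pass (0.33 ± 0.15, limma adjusted p = 0.13). With 32 added in linear units its change was 0.05. Stat5a and Stat5b are closely related genes, and whether their probe sets read one another was not tested. Across all members, 7 of the 14 probe sets had groups that did not overlap, against 48.2% of all probe sets tested.

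Il2ra with Il15ra, and Stat5b with Stat5a, are neighbours among the protein-coding genes of the RefSeq table (GRCm38.p6). Next to Il2ra on its outer side, Rbm17, which encodes a splicing factor, went from 8.78 ± 0.11 to 8.32 ± 0.01 (SD, n = 3), a fall by 0.46 (limma adjusted p = 0.0059). Beyond it Pfkfb3, a regulator of glycolysis, had a change of -0.08. On the side of Il15ra, Fbh1, a DNA helicase gene, rose by 0.46 (limma adjusted p = 0.013), a call lost without GFP negative 3 (0.41, adjusted p = 0.051). A further gene, Gm46731, had no probe set named here. The changes around Il2ra were thus far smaller than that of Il2ra and ran in both directions.

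Beside Stat5a lies Stat3, whose product carries signals of other cytokines, and it rose by 0.52 ± 0.11 (SE, limma adjusted p = 0.010). Beyond Stat3, Cavin1 was near background, at 1.35 and 1.32. On the side of Stat5b, Ghdc rose by 0.59 (limma adjusted p = 0.039) and Hcrt, the gene of the neuropeptide orexin, fell by 0.50 (limma adjusted p = 0.016), both from low signals. With 32 added in linear units their changes were 0.11, which did not pass (limma adjusted p = 0.099), and -0.13. Ghdc kept its call among the single-sample omissions only without GFP positive 1, with an adjusted p of 0.12 without GFP negative 1 or GFP positive 2, 0.083 without GFP negative 2 or GFP negative 3 and 0.11 without GFP positive 3. Hcrt lost it without GFP negative 1, GFP negative 3 or GFP positive 2 (0.052, 0.051 and 0.057). The rise on 3 adjacent STAT genes was therefore not shared by every neighbour.

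The genes whose pattern over the 6 arrays was most like that of Il2ra were Nln, Tex2, Klrd1, Osbpl3 and Slc30a4. Likeness was the root mean square difference between values centred on each gene's own mean, over 13193 other genes, and it was 0.16, 0.17, 0.18, 0.19 and 0.20 log2 units for these 5. Nln encodes an oligopeptidase and went from 4.49 ± 0.10 to 2.42 ± 0.18. Tex2 went from 7.20 ± 0.07 to 4.62 ± 0.09. Klrd1, which encodes the receptor chain CD94, went from 6.28 ± 0.08 to 3.71 ± 0.32. Osbpl3, of the oxysterol-binding protein family, went from 6.63 ± 0.08 to 4.02 ± 0.24, and Slc30a4, a zinc transporter gene, from 8.45 ± 0.19 to 6.09 ± 0.09 (SD, n = 3). They were picked for this pattern, so their falls are a description. With 32 added in linear units the changes of Nln, Tex2, Klrd1 and Osbpl3 were -0.54, -1.66, -1.28 and -1.44.

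The other genes of the pathway were read from lists of partner receptors, ligands, kinases and STATs, brakes, adaptors and known targets, with the brightest probe set for each gene. Of 70 listed genes 64 had a probe set and 58 passed the dim filter. Of these, 22 were higher, 10 lower and 26 did not pass, so that 55.2% were called, against 37.5% of all 13194 genes tested. With the filter set at the 60th percentile of signal, 35 of 57 list genes were called, against 50.2% of all genes. The median change of the 58 was 0.16, against -0.02 over all genes. Without GFP negative 1 and GFP positive 3 together, 20 were called and 13 were higher, and the share of all genes called was then 19.6%. With the replicate number as a block, 20 were higher and 13 lower.

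Of 3 tested partner chains of the common gamma chain, Il4ra, the receptor for interleukin 4, was lower (-0.42 ± 0.12, limma adjusted p = 0.035). That call was lost on leaving out any single sample other than GFP positive 2. The changes were -0.44, -0.39 and -0.42 without GFP negative 1, 2 and 3 and -0.37 and -0.34 without GFP positive 1 and 3. The dimmer Il4ra probe sets also passed in the main fit, with changes of -0.44 and -0.36 (limma adjusted p = 0.024 and 0.042). The interleukin 7 receptor gene Il7r had a change of -0.08 ± 0.38, with a wide spread in the controls (SD 0.87), and Il21r of 0.09 ± 0.09. Il9r lay below the filter, at 0.94 and 0.81. Of the 6 ligands, Il9 alone passed the filter (2.96 and 2.86, not past the test). Il2 read 1.06 ± 0.16 in GFP negative and 0.90 ± 0.27 in GFP positive cells, and Il15 0.91 ± 0.02 and 1.30 ± 0.14, both close to background.

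Other JAK and STAT genes were mostly higher, 5 of 6 tested, with 0 lower, a median change of 0.61, and 22.6% of all genes called higher. Jak2 went from 5.78 ± 0.09 to 6.96 ± 0.08 (SD, n = 3), a rise of 1.18 (limma adjusted p = 2.0e-04), and Tyk2 rose by 0.71. Stat2, which acts in interferon signalling, rose by 1.13 from a low signal, and Stat3 by 0.52. With 32 added in linear units Stat2 and Tyk2 rose by 0.23 and 0.43. Stat6 rose by 0.26 (limma adjusted p = 0.045), a call lost with the replicate block (adjusted p = 0.072). The call was also lost with median centring (change 0.14, limma adjusted p = 0.24). Leaving out any single sample ended it too (adjusted p from 0.061 to 0.12 over the 6 omissions: GFP negative 1, 2 or 3, GFP positive 1, 2 or 3). The dimmer probe sets of Tyk2 and Stat6 changed by 0.04 and -0.03 and did not pass. For Stat3, rises of 0.54 and 1.01 on other probe sets passed and a change of -0.0008 did not. Stat4 had a change of 0.04. Without GFP negative 1 and GFP positive 3 together 3 of the 6 were higher.

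Genes that restrain cytokine receptor signalling gave 7 higher, 1 lower and 5 not past of 13, with a median change of 0.44, where 22.6% of all genes were called higher and 14.9% lower. Socs3, an inhibitor of JAK activity, went from 7.08 ± 0.09 to 8.75 ± 0.22, a rise of 1.67 ± 0.12 (SE, limma adjusted p = 1.9e-04). Socs2, of the same family and a known STAT5 target, fell by 1.16, from 9.39 ± 0.10 to 8.23 ± 0.28. Pias3 and Pias1, which inhibit STAT proteins, rose by 1.02 and 0.70, and the ubiquitin ligase genes Cbl and Cblb by 0.57 and 0.52. On dimmer probe sets, changes of 0.13 for Pias3 and of 0.43 and 0.37 for Cbl did not pass. For Pias1 a rise of 0.86 passed and changes of 0.37 and 0.31 did not. The dimmer Cblb probe sets passed, with rises of 0.64 and 1.41. Among those of Socs2, falls of 1.12 and 0.58 passed and changes of -0.30 and -0.23 did not. With 32 added in linear units the rise of Pias3 was 0.27. Cish, named here after its values were seen, did not pass (0.14 ± 0.10, limma adjusted p = 0.28). Without GFP negative 1 and GFP positive 3 together 4 were higher.

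Adaptors and kinases downstream of the receptor gave 4 higher, 1 lower and 6 not past of 11, with a median change of 0.27. The 5 called compare with 37.5% of all genes called, 22.6% higher and 14.9% lower. On its brightest probe set Gab2, a docking protein, rose by 0.90 from a low signal (0.18 with 32 added in linear units). Its other probe sets, also low, changed by -0.10 and 0.05 and did not pass. Pik3ca rose by 0.49, Map2k1 by 0.32 and Shc1 by 0.30, while Sos2 fell by 0.41, each on the brightest probe set. The other tested Pik3ca probe sets were split, with rises of 0.46 and 0.37 that passed and changes of -0.07 and -0.04 that did not. Ptpn11 had a change of 0.27 (limma adjusted p = 0.054). The number higher was 2 without GFP negative 1, GFP positive 2 or GFP positive 3, and 1 without GFP negative 3. The number lower was 0 without GFP negative 1, GFP negative 2 or any GFP positive sample. Leaving out GFP positive 2, GFP positive 3, GFP negative 1 or GFP negative 3 ended the call of Pik3ca (adjusted p of 0.059 to 0.066). Map2k1 did not pass without GFP negative 2 or 3 (adjusted p of 0.058 and 0.063). With median centring the change of Map2k1 was 0.21 and did not pass (limma adjusted p = 0.076). Shc1 lost its call without any single sample (adjusted p of 0.052 to 0.12 over GFP negative 1, 2 or 3 and GFP positive 1, 2 or 3). It also lost the call with the replicate block (limma adjusted p = 0.057). With median centring the change of Shc1 was 0.18 and did not pass (limma adjusted p = 0.15).

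Known targets of interleukin 2 and STAT5 moved both ways, with 8 higher, 8 lower and 12 not past of 28, and a median change of -0.19. Among all genes 22.6% were called higher and 14.9% lower. Pim2, a survival kinase gene, fell from 9.37 ± 0.18 to 5.88 ± 0.20, Il18r1, an interleukin 18 receptor chain, from 6.07 ± 0.40 to 4.30 ± 0.18, and Gzmb, granzyme B, from 12.58 ± 0.02 to 11.58 ± 0.16. Id2, an inhibitor of E proteins, rose from 7.53 ± 0.05 to 9.02 ± 0.13 (SD, n = 3), Socs3 rose as given above, and Prf1, perforin, rose from 2.89 ± 0.29 to 4.39 ± 0.22. The limma adjusted p of these 6 lay between 2.8e-05 for Pim2 and 7.0e-04 for Prf1. With 32 added in linear units Il18r1 changed by -0.95 and Prf1 by 0.43. The dimmer Prf1 probe set, at 1.55 in GFP negative and 1.51 in GFP positive cells, changed by -0.04 and did not pass. The list thus gave no common direction.

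**Figure D3:**
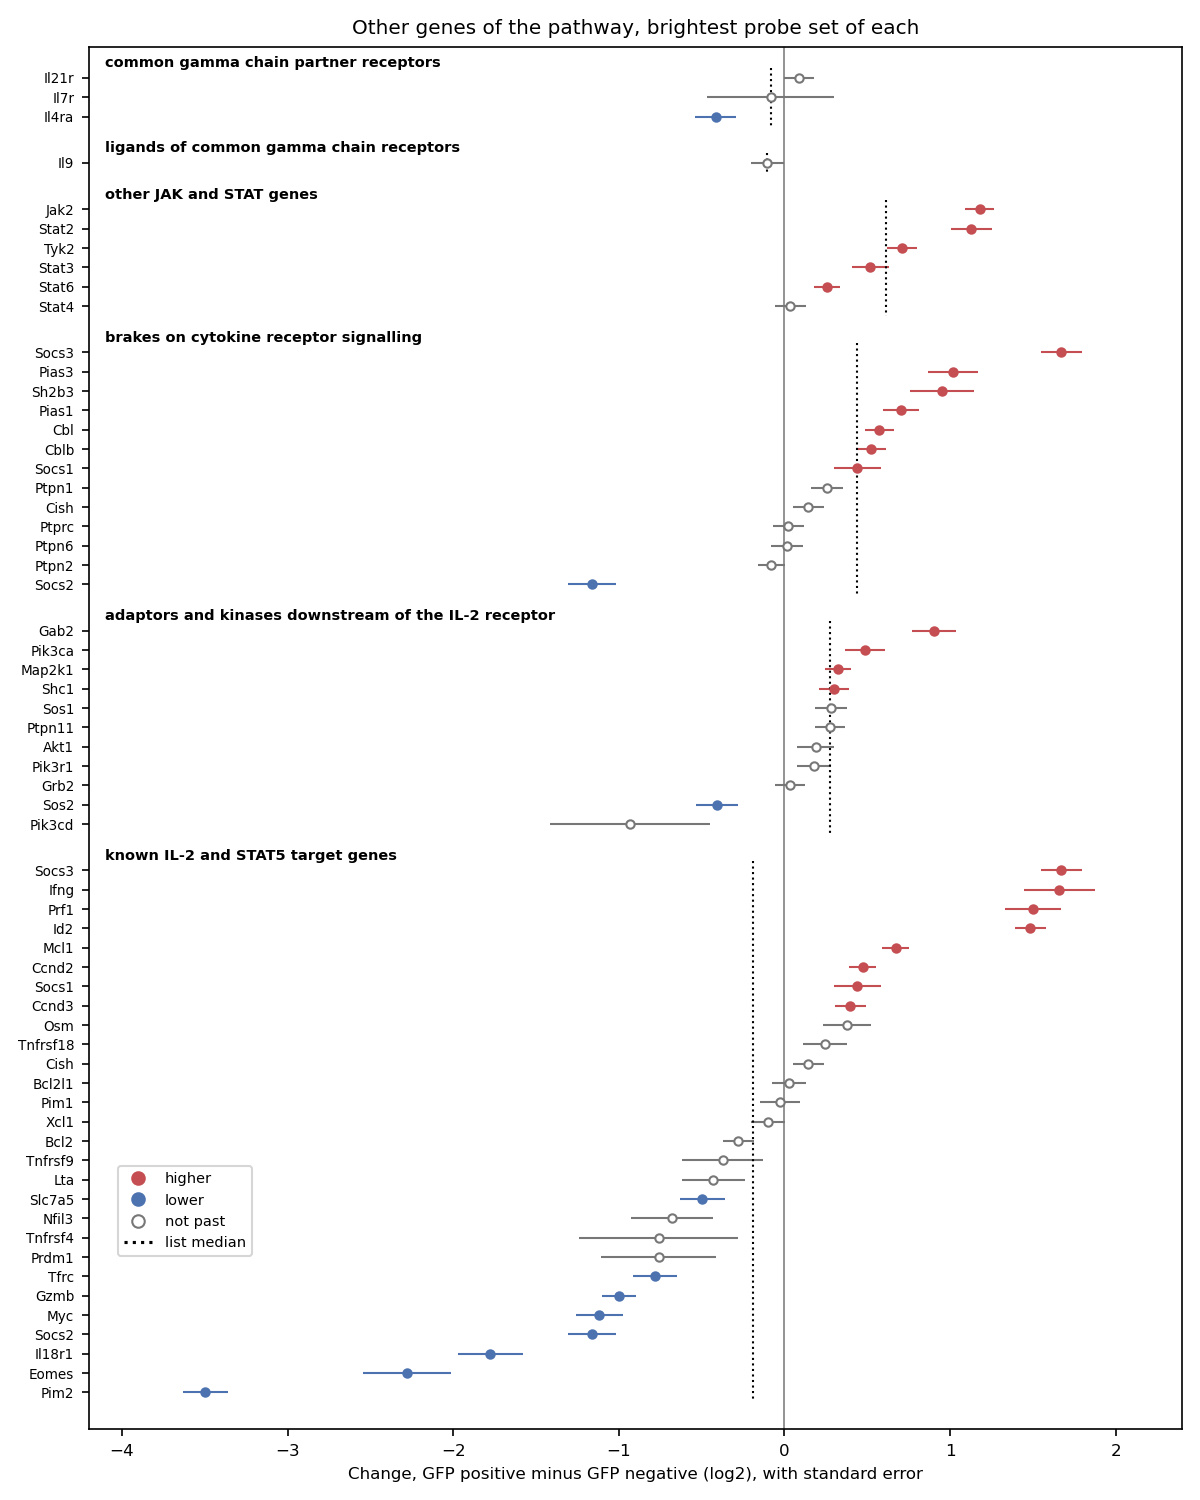
Change from GFP negative to GFP positive cells on the log2 scale (x axis), with its standard error, for the brightest probe set of each tested gene in the 6 pathway lists. Red points were higher and blue lower at an adjusted p of 0.05, open points did not pass, and dotted lines mark list medians. JAK and STAT genes lie mostly to the right, and target genes spread from -3.50 for Pim2 to 1.67 for Socs3.

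Most defining markers of other cell types were dim. Regulatory T cells hold much CD25, and their defining gene Foxp3 read 1.19 ± 0.21 in GFP negative and 0.75 ± 0.02 in GFP positive cells (SD, n = 3). Its mean lay under the dim filter, so limma did not test it. The GFP positive values were near the TrpnX controls, and the GFP negative ones, 1.41, 0.98 and 1.19, were higher. The groups did not overlap, as for 48.2% of all probe sets tested. Foxp3 thus ran in the same direction as Il2ra, and its part in the Il2ra result was not tested. Of the list for CD4 and regulatory T cells 5 were tested, 2 higher and 1 lower, against 22.6% and 14.9% of all genes, and its summed log2 signal over 6 genes was 21.6 to 23.0 against 22.8 to 23.5. Cd4 read 2.87 and 2.82, Ikzf2, of the Ikaros family, read 4.48 and 6.36, and Ctla4, the brightest of the list, which activated T cells also express, read 8.53 and 7.90 (limma adjusted p = 0.049, and over 0.05 on leaving out any single sample other than GFP negative 3). Dendritic cell markers, read against the same 14.9% called lower, gave 2 lower of 4 tested, Flt3 and Zbtb46, from 2.54 to 2.07 and from 2.49 to 2.01, and a sum over 5 genes of 9.30 to 9.45 against 7.50 to 8.64. Flt3 lost its call without GFP negative 1, GFP negative 3 or GFP positive 2 (adjusted p = 0.054, 0.054 and 0.056), and Zbtb46 without GFP negative 2, GFP negative 3, GFP positive 2 or GFP positive 3 (0.097, 0.075, 0.072 and 0.073). Their changes were -0.062 and -0.061 with 32 added in linear units, and Zbtb46 did not pass (limma adjusted p = 0.074). Their part in the Il2ra result was not tested. Of 8 tested B cell, NK cell, macrophage, neutrophil and red cell markers 0 passed by limma, the brightest of them being Cd79b (4.50 and 4.35), Klre1 (1.56 and 1.26), Csf1r (2.98 and 2.66), Elane (2.22 and 2.10) and Klf1 (2.01 and 1.75).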

How the data were processed

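The values are log2 signals for 45101 probe sets on 6 arrays, as the authors deposited them; the log2 unit was read from their range. Affymetrix Expression Console is the software in the submitters' processing notes, and the sources used here state neither its algorithm nor its normalization. The values were used without further normalization. Controls (64 probe sets) and those under the 40th percentile of mean signal (1.27) were left out, which leaves 27022. GFP positive and GFP negative samples were compared with limma 3.58.1 in R 4.3.3 (lmFit, eBayes, two-sided, group as the only term), with Benjamini-Hochberg adjustment over all probe sets tested and a threshold of 0.05. The procedure was tested on simulated data. The probe set with the highest mean stands for a gene. Of all probe sets, 34945 carry 1 gene symbol and 9160 are not listed in the annotation.

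The members, lists, rule for named genes and alternatives were chosen with earlier results of these data known. The rule names all member probe sets, Hdac7, up to 6 genes per pathway list by unadjusted p, the 5 genes most like Il2ra, the 2 protein-coding genes on each side of both neighbouring pairs, and the brightest marker of each cell type. Cish, Cd8b1, Foxp3, Cd4, Ikzf2, Flt3 and Zbtb46 were named after their values were seen. Il2ra was compared with 6 members, since Il2rg had no named probe set. Same-numbered samples of both groups deviated together, with correlations across genes of 0.47, 0.35 and 0.25 (0.30, 0.24 and 0.08 over all probe sets tested), and were taken as paired on the first of these; the labels state no such pairing. The main fit and the permutation test left this pairing out, and only the replicate block used it. The number of arrays limits the precision. Alternatives covered scaling, background, filter, prior, block, probe set choice and omitted samples.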

Additional observations from a re-analysis of the deposited data

How the results depend on the processing

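Each result was recomputed under other scalings, background, filters, prior, a replicate block and omitted samples. Of 214 recomputed values of 14 main results, 203 kept their direction and their side of the threshold, or their count within 1.5 times. Of 1070 recomputed values of the 72 other results, 922 did so. Among the rest, 96 lost a call, 12 gained a call, 18 changed direction and 22 were counts that moved further. The 6 permutation comparisons of Il2ra with other members are not counted, since their p cannot pass the threshold in this design. Median centring gave 4 member probe sets lower, against 2, a called change of -0.33 for Il2rb and an uncalled 0.27 for Stat5a. Without GFP negative 1 and GFP positive 3 together, Stat5a lost its call (0.28, adjusted p = 0.15), and 20 pathway genes were called, 13 of them higher, with fewer samples in the fit. Leaving out 1 sample at a time gave Stat5a changes of 0.33 to 0.45, with 4 of 6 omissions ending its call. The causes were not tested. The direction of Jak3 turned with quantile normalization (-0.016), as did Il21r (-0.051, and -0.030 with median centring), Stat4 (-0.024, and -0.079) and Cavin1 (0.034), and Pfkfb3 was 0.059 without GFP negative 1 and GFP positive 3 together. Over single-sample omissions, uncalled changes crossed 0 for the dimmer Il15ra probe set (-0.17 to 0.077), the third Jak1 probe set (-0.014 to 0.71), Il7r (-0.46 to 0.40), Stat4 (-0.0089 to 0.094), Cavin1 (-0.15 to 0.068) and Pfkfb3 (-0.21 to 0.013).

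With the replicate block, 6 member probe sets were called, as without it, with adjusted p of 8.1e-04 for Il2ra, 0.0092 for Jak1, 0.032 for Stat5a and 0.0056 for Stat5b, and no member's call changed. Dim probe sets, such as the dimmer Stat5a one (2.19 in GFP negative and 2.53 in GFP positive cells), have folds that depend on the background treatment.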
